A study of Mus musculus with 5 samples.

Results

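The genes described here are Trp53, which encodes the tumour suppressor p53, and 9 of its regulators and targets. They were taken by symbol from a fixed list of 10 genes, and all 10 are among the 17739 genes of the deposited table. RNA had been measured in 5 medulloblastoma samples from cerebella of Math1-Cre;Gli2A mice, made by crossing Math1-Cre with R26;Gli2A animals and given doxycycline (DOX) from embryonic day 0, with GLI2 labelled as active. The samples form 1 group with no control, and are named by the tumour numbers of their titles: 1, 5, 8, 14 and 15. No source used here states that each number is a separate animal, so an SD over them may be partly technical. Math1-Cre acts in granule neuron progenitors, but the tumours were digested whole and not sorted. The samples therefore also hold other cells of the cerebellum.

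p53 is a transcription factor that is kept low in unstressed cells and accumulates after DNA damage, oncogene activity or other stress. MDM2 and MDM4 bind p53, and MDM2 also marks it for degradation. p53 then switches on genes that halt the cell cycle, repair DNA, limit growth signals or start cell death, and it also switches on Mdm2, which closes a feedback loop. In Sonic hedgehog medulloblastoma, loss of p53 function is known to mark a group of patients with poor outcome. The amount of p53 protein is set mainly by its stability, which RNA values do not show, and no sequence variants were examined.

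The values are log2 expression values corrected for library size, read here as regularised-log values. They do not correct for transcript length, so levels of different genes are compared only as log2 expression minus log2 exon length in kb, called log2 level per kb below. All 7 granule neuron progenitor markers were in the table, which by itself is no check of the labelled tissue. Zic1 stood at 15.08 ± 0.05 and Atoh1, also called Math1, at 8.62 ± 0.67 (SD, n = 5). Atoh1 ranged 2.81-fold, and 66.9% of all genes had a log2 level per kb at or below its own. The median log2 level per kb was 10.44 for progenitor and 11.46 for differentiating granule neuron markers. Tumour 5 held the top value for many markers of other cells, where 24.1% of genes with a mean of at least 5 peaked. The counts were 7 of 7 oligodendrocyte, 5 of 5 choroid plexus, 7 of 8 microglia and macrophage and 5 of 6 Purkinje and GABAergic neuron markers. They were 4 of 6 for endothelial, 4 of 6 for mature granule neuron and 2 of 6 for astrocyte and Bergmann glia markers. Tumour 5 held the top value for 0 of 6 oligodendrocyte precursor and 0 of 6 pericyte and fibroblast markers. It held the lowest for 3 and 2 of them, against 24.6% of genes. In bulk samples, fewer cells of a type and less RNA per cell cannot be told apart.

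The start regions of the genes were examined for the p53 decamer, the 10-base unit of the p53 binding site, because p53 acts on several of these genes through it. RefSeq promoters on GRCm38.p6, running from 250 bases before to 50 bases after each start, were given for all 10 genes, with 13 starts in all. A decamer matching the consensus was present in 6 of these 13 promoters, and in 8.36% of all 32851 mouse promoters in the table. The consensus is its own reverse complement, so both strands were read at once. In the stretches below, each 5′ to 3′ on the gene's strand, the capitals mark the decamers, or the 20 bases of a pair of decamers with no spacer.
Cdkn1a upstream start (chr17:29090829-29090978, plus strand): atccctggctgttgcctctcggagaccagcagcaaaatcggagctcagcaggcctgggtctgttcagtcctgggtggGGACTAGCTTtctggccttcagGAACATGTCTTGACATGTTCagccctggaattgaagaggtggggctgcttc
Trp53 (chr11:69580264-69580323, plus strand): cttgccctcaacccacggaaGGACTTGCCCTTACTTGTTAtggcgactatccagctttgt
Mdm2 (chr10:117710915-117710964, minus strand): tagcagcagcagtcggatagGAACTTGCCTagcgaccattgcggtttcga
Ppm1d (chr11:85311102-85311151, plus strand): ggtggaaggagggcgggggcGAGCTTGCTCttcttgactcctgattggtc
Ccng1 (chr11:40755442-40755491, minus strand): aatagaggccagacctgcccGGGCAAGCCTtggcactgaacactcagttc
Sesn1 downstream start (chr10:41887246-41887295, plus strand): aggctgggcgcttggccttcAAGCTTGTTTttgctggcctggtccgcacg

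A pair of decamers with both cores intact and at most 3 mismatches in its 20 bases was present at 2 of the 13 member starts and in 0.572% of all promoters. In Cdkn1a, the gene of the cell cycle inhibitor p21, this pair began 51 bases before the upstream start and carried 1 mismatch. In Trp53 it began 75 bases before the start and carried 3 mismatches. A looser pattern, CNNG followed after 6 bases by another CNNG, was present in 12 of 13 member promoters and in 70.2% of all promoters; every pair of decamers also holds it. No decamer was matched in the windows of Mdm4, Sesn2, Phlda3 or Eda2r, which says only that these letters are not in those windows. A match of letters is a description of the sequence, and binding of p53 was not measured.

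Trp53 (GRCm38 chromosome 11, 69580359 to 69591873, protein coding) was abundant and nearly even among the tumours. Its log2 expression was 12.10, 11.91, 11.93, 12.13 and 11.98 in tumours 1, 5, 8, 14 and 15, or 12.01 ± 0.10 (SD, n = 5). Tumours 14 and 1 were highest and tumour 5 lowest, 1.16-fold apart. Of all genes, 95.4% had a log2 level per kb at or below that of Trp53. A processed pseudogene, Trp53-ps, matches Trp53 transcripts over 353 bases at 97.7% identity, and reads from such a stretch could have been assigned to either gene.

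**Figure D1:**
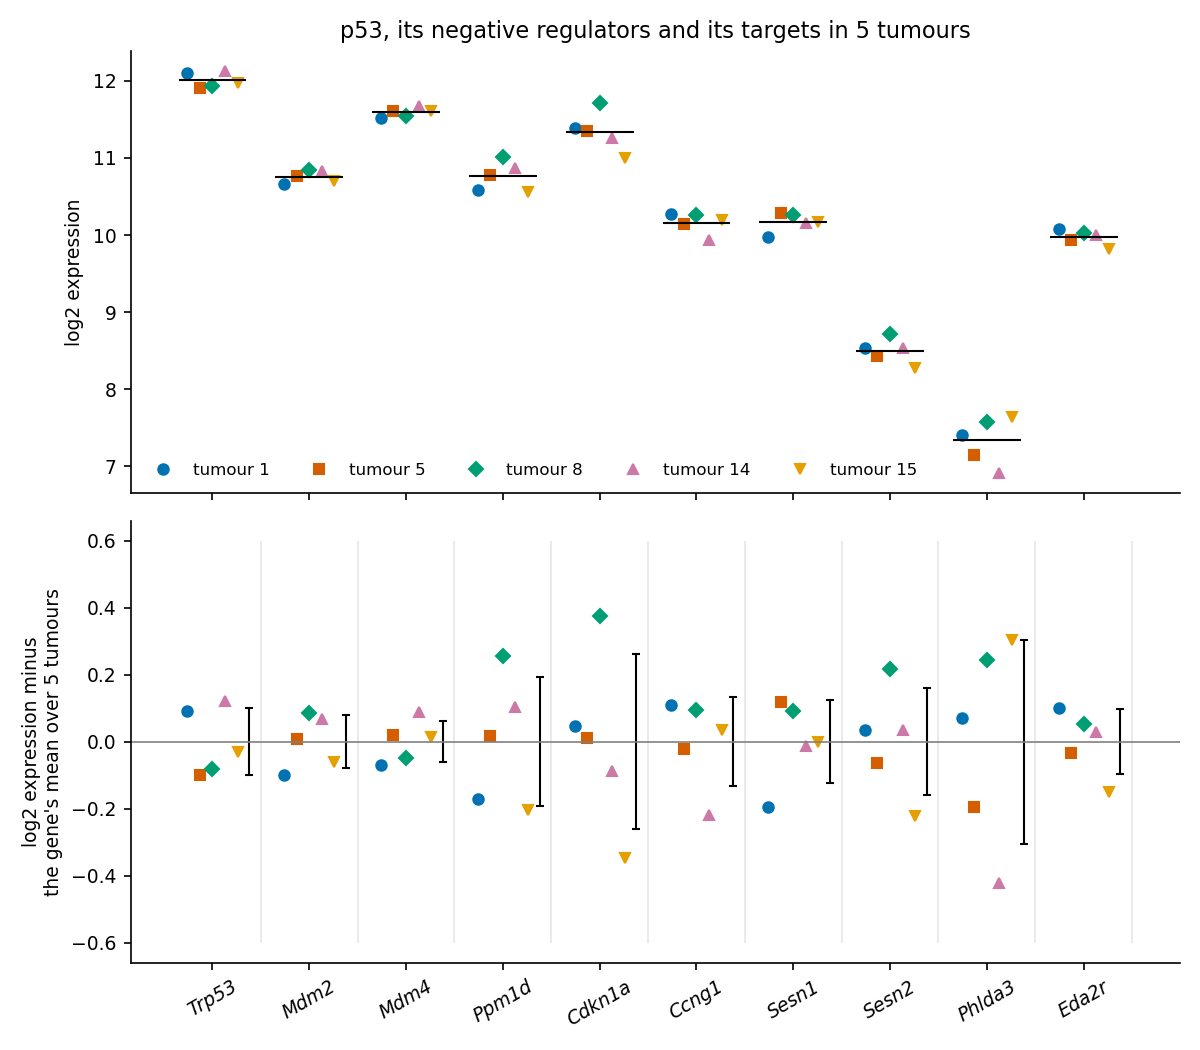
Log2 expression of the 10 genes in the 5 tumours (upper panel, black line: mean) and the same values minus each gene's mean (lower panel, bar: SD over 5 tumours). Cdkn1a and Phlda3 spread most, over 0.72 log2 units each, and Mdm4 and Mdm2 least, over 0.16 and 0.18.

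The 3 negative regulators differed in how far they varied. Mdm2 (chromosome 10, 117688875 to 117710758), the ubiquitin ligase that degrades p53, had log2 expression of 10.66, 10.77, 10.84, 10.83 and 10.70 in tumours 1, 5, 8, 14 and 15. Mdm4 (chromosome 1, 132959484 to 133030561), its relative that blocks p53 without degrading it, had 11.52, 11.61, 11.54, 11.68 and 11.61. Both were nearly even, with SDs of 0.08 and 0.06, and both were lowest in tumour 1. Ppm1d (chromosome 11, 85311244 to 85347066) encodes the phosphatase WIP1, which removes activating phosphates from p53 and from damage kinases and is itself a p53 target. Its log2 expression was 10.59, 10.78, 11.02, 10.86 and 10.56 (mean 10.76 ± 0.19, SD, n = 5). Ppm1d was highest in tumour 8 and lowest in tumour 15, 1.38-fold apart, and 88.7% of genes of like level (within 0.5 log2 units) had a smaller SD.

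Among the targets, Cdkn1a and Phlda3 varied most. Cdkn1a (chromosome 17, 29090976 to 29100727), whose product p21 inhibits cyclin-dependent kinases, had log2 expression of 11.39, 11.35, 11.72, 11.25 and 10.99 in tumours 1, 5, 8, 14 and 15. Tumour 8 stood above the other 4 and tumour 15 below them, 1.65-fold apart, and 95.7% of genes of like level had a smaller SD than its 0.26. An annotated transcript on the opposite strand, AC167363.2, shares 273 bases (7.68%) of the Cdkn1a exons; the libraries were strand-specific, but the strand setting of the counting is not given in the sources used here. Phlda3 (chromosome 1, 135766119 to 135769136), which competes with AKT for membrane lipids and so restrains growth signalling, had 7.41, 7.14, 7.58, 6.91 and 7.64. Its order was different: tumours 15 and 8 were highest and tumour 14 lowest, also 1.65-fold apart. Its log2 expression averaged 7.34 ± 0.30 (SD, n = 5), and 84.9% of genes of like level had a smaller SD.

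The other 4 targets varied less. The sestrins are stress-induced inhibitors of the growth kinase complex mTORC1. Sesn1 (chromosome 10, 41809935 to 41908424) had log2 expression of 9.97, 10.29, 10.26, 10.15 and 10.17, lowest in tumour 1. Sesn2 (chromosome 4, 132492032 to 132510501) had 8.53, 8.44, 8.71, 8.53 and 8.27, highest in tumour 8 and lowest in tumour 15, as Cdkn1a and Ppm1d were. Sesn3, the third sestrin and better known as a FOXO target, averaged 9.35 ± 0.21 and was highest in tumour 15. Ccng1 (chromosome 11, 40748552 to 40755311), the gene of cyclin G1, which recruits a phosphatase that activates MDM2, had 10.27, 10.14, 10.26, 9.94 and 10.20. Tumour 14 was the lowest for Ccng1 and the other 4 lay within 0.13 of each other. Eda2r (chromosome X, 97333840 to 97377216), a receptor of the tumour necrosis factor family, had 10.08, 9.94, 10.02, 10.003 and 9.82, with an SD of 0.10.

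None of the 10 genes differed over 2-fold between its highest and lowest tumour, against 3.79% of the 13691 genes whose mean reached 5. Over 1.5-fold the count was 2 of 10, Cdkn1a and Phlda3, against 14.7% of genes. An SD above 0.3 was found for 1 of 10, Phlda3, against 8.5% of genes. The median SD was 0.13 over the 10 genes and 0.11 over the 13691. These shares lay near those of the whole table. Over 2-fold, all genes numbered 519, but 248 without tumour 5 and 317 without tumour 15. The range of Cdkn1a was 1.31-fold without tumour 8 and 1.38-fold without tumour 15, and that of Phlda3 was 1.41-fold without tumour 14, so the 1.5-fold calls rest on those tumours.

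**Figure D2:**
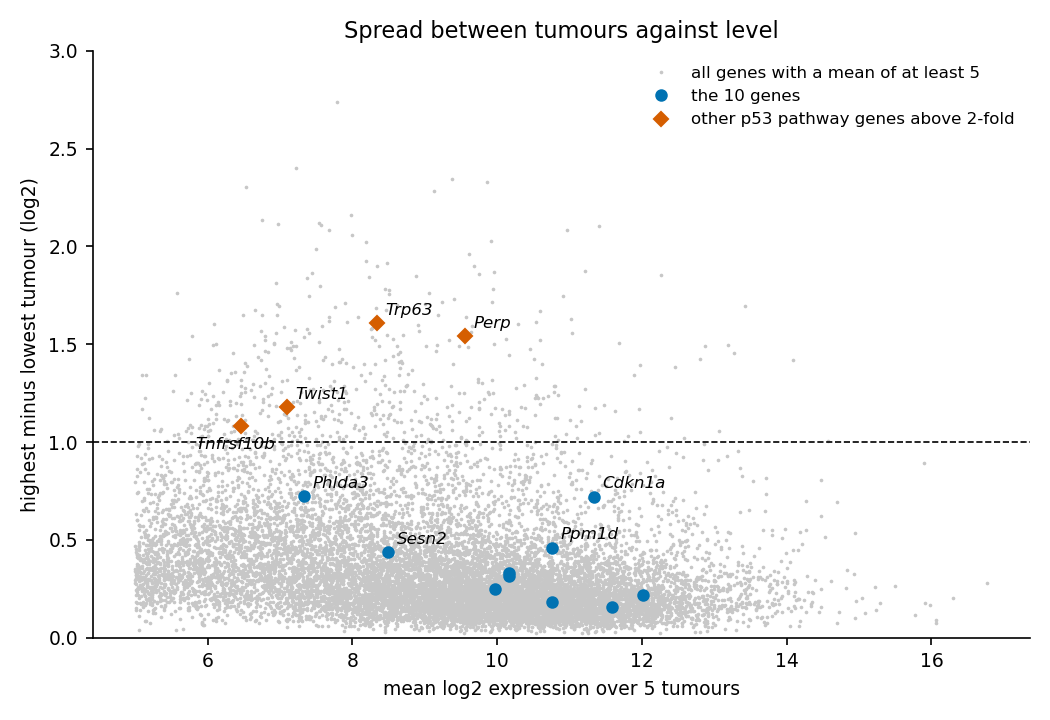
Range over the 5 tumours (highest minus lowest, log2) against mean log2 expression for 13691 genes with a mean of 5 or more; the dashed line is 2-fold, and 4 genes above 3 lie outside the axis. The 10 genes lie below the line, while Trp63, Perp, Twist1 and Tnfrsf10b lie above it.

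Tumour 8 held the highest value for 4 of the 10 genes, Mdm2, Ppm1d, Cdkn1a and Sesn2, against 18.5% of genes. Tumour 15 held the lowest value for 4 of 10, Ppm1d, Cdkn1a, Sesn2 and Eda2r, against 22.9% of genes. Ppm1d, Cdkn1a and Sesn2 were on both lists. The other highest values lay in tumour 1 for 2 of 10 (20.2% of genes), tumour 14 for 2 (15.8%), tumour 5 for 1 (24.1%) and tumour 15 for 1 (21.4%). The other lowest values lay in tumour 1 for 3 of 10 (16.9% of genes), tumour 14 for 2 (13%), tumour 5 for 1 (24.6%) and tumour 8 for 0 (22.6%). With column medians made equal, tumour 8 was highest for 3 of the 10 genes and tumour 15 lowest for 5. Mdm2 in tumour 8 exceeded tumour 14 by less than 0.02, so its place at the top is not firm.

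Levels of the 10 genes were then placed in order per exon length. Trp53 was the highest at a log2 level per kb of 9.99 ± 0.10, then Cdkn1a at 9.51 ± 0.26 and Ppm1d at 9.09 ± 0.19 (SD, n = 5). With this length each of these exceeded the next in the order in 5 of 5 tumours, Ppm1d exceeding Mdm2 by 0.68 ± 0.12. Mdm2 (8.41), Ccng1 (8.35) and Sesn1 (8.17) followed, and neighbours in this middle group did not differ beyond their spread with this length. Mdm4 (7.71) and Eda2r (7.42) came next, 0.29 ± 0.13 apart. Sesn2 and Phlda3 were the lowest, at 6.70 ± 0.16 and 6.70 ± 0.30, and did not differ beyond their spread. Several of these steps rested on the choice of length. With the length of the longest transcript, Trp53 (10.30) exceeded Cdkn1a (10.28) in only 3 of 5 tumours. Ppm1d (9.22) then exceeded Mdm2 (9.10) by 0.12, about the SD of that difference, in 4 of 5 tumours. Mdm2 stood 0.76 above Ccng1 (8.35) in 5 of 5 tumours, with Mdm4 (8.76) between them. Sesn1 minus Mdm4 was -0.53, against 0.47 with the length of all exons.

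**Figure D3:**
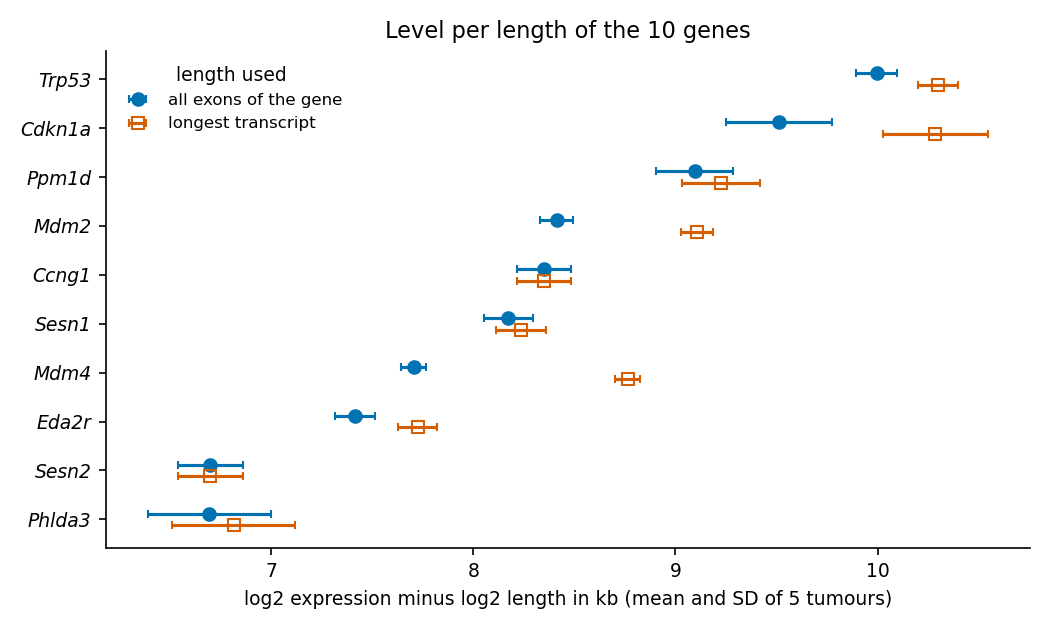
Log2 expression minus log2 length in kb, mean and SD over 5 tumours, with the length of all exons of a gene (filled) or of its longest transcript (open). Trp53 and Cdkn1a lead with both lengths, and Mdm4 stands 7th with the first and 5th with the second.

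Paired genes were compared within each tumour to ask which partner was the more abundant per length. The exact two-sided sign-flip permutation test has 32 patterns for 5 tumours and a smallest p of 0.0625, so no pair could pass 0.05. Trp53 exceeded Mdm2 by 1.58 ± 0.14 on the log2 level per kb, or 2.99-fold, in 5 of 5 tumours. Mdm2 exceeded Mdm4 by 0.71 ± 0.08 in 5 of 5 tumours, but this direction rested on the length: the annotated exons of Mdm4 span 14798 bases and those of Mdm2 5083. With the longest transcript of each gene (7105 and 3145 bases) the difference was 0.34, and with no length subtracted it was -0.83. Sesn1 exceeded Sesn2 by 1.47 ± 0.20 and Cdkn1a exceeded Ccng1 by 1.16 ± 0.25, each in 5 of 5 tumours. With the longest transcripts Cdkn1a exceeded Ccng1 by 1.94. Each of the 6 pairs gave the smallest p the exact permutation test allows, 0.0625 (adjusted 0.0625 over 6 pairs).

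Cdkn1a was also set beside Cdkn1b, the gene of p27, a relative among cyclin-dependent kinase inhibitors and a main brake of granule neuron progenitors. Cdkn1a minus Cdkn1b was -0.85 ± 0.25 on the log2 level per kb, below 0 in 5 of 5 tumours, and -0.08 with the longest transcripts (exact sign-flip permutation p = 0.5). The spread was in Cdkn1a: Cdkn1b was 12.55 ± 0.03 in log2 expression, and only 4.27% of genes of like level had a smaller SD. Cdkn1c, which encodes p57, averaged 9.79 ± 0.30 and was highest in tumour 1. Of the INK4 inhibitors, which block CDK4 and CDK6, Cdkn2c averaged 10.20 ± 0.16 and Cdkn2d 9.49 ± 0.13. Cdkn2b stood at 5.94 ± 0.15. Cdkn2a, whose ARF product releases p53 by binding MDM2, had log2 expression between 4.40 and 4.71. Of all genes, 27.7% had a log2 level per kb at or below that of Cdkn2a; INK4A and ARF transcripts cannot be told apart in a gene total.

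The relatives of Trp53 behaved differently from it. Trp53 exceeded Trp73, a p53 family gene active in neural development, by 5.16 ± 0.25 on the log2 level per kb in each of the 5 tumours, 1 of the 6 pairs tested above. Trp73 log2 expression was 7.32, 7.22, 6.96, 7.33 and 7.68 in tumours 1, 5, 8, 14 and 15. Trp63, the family member that maintains stratified epithelia, had 7.79, 7.95, 8.59, 7.97 and 9.40. Tumour 15 was thus 3.05-fold above tumour 1 for Trp63, and 99.2% of genes of like level had a smaller SD. Perp, a membrane and desmosome gene that both p53 and p63 are known to activate, had 8.88, 9.19, 9.99, 9.28 and 10.42. The 5 tumours stood in the same order for Perp as for Trp63, with a 2.91-fold range for Perp. Tumour 15 also held the top value of 4 of 6 pericyte and fibroblast markers, against 21.4% of genes. Their median was 11.59 there, 11.50 in tumour 1, which was lowest for Trp63 and Perp, and 11.12 to 11.31 in the others. The part of these markers in the Trp63 and Perp values was not tested.

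**Figure D4:**
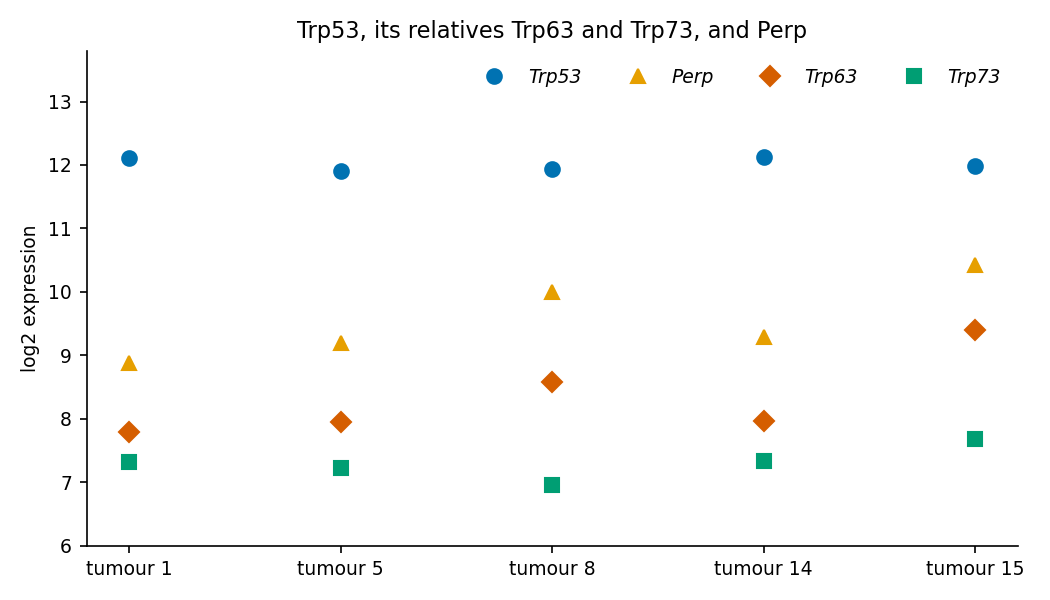
Log2 expression of Trp53, Perp, Trp63 and Trp73 in each tumour. Trp53 is nearly level at 11.91 to 12.13, while Trp63 and Perp are both lowest in tumour 1 and highest in tumour 15.

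Of 34 other p53 target genes, all were in the table with a mean of at least 5, and 2 (Perp and Tnfrsf10b) ranged over 2-fold, against 3.79% of all genes. Their median SD was 0.14. Tnfrsf10b, the gene of a death receptor, had log2 expression of 7.10, 6.08, 6.50, 6.02 and 6.59, highest in tumour 1. Gadd45a, a growth arrest gene, had 10.91 in tumour 1 and 10.09 to 10.34 in the others. Btg2, an antiproliferative gene that is also an early response gene, had 11.94 in tumour 1 and 12.38 to 12.62 in the others. Tumour 1 also had the lowest value of all 9 immediate early and dissociation stress genes, against 16.9% of genes. Their median was 11.82 there and 12.21 to 12.64 in the others. Their part in the Btg2 values was not tested. The mean log2 level per kb was 11.13 for Trp53i11, 10.94 for Btg2, 9.72 for the sulfatase gene Sulf2 and 9.03 for Ei24. It was 4.75 for Gdf15, a stress-induced secreted factor, and 4.26 for the death receptor gene Fas.

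Of 26 other p53 regulators, 24 were in the table under the listed symbols, among them Cop1 and Kmt5a, whose older symbols Rfwd2 and Setd8 made up the rest. Of the 23 with a mean of at least 5, 1 (Twist1) ranged over 2-fold, against 3.79% of genes. Twist1, a mesenchymal factor that can restrain p53, had 7.84 in tumour 15 and 6.67 to 7.20 in the others. Huwe1, a ubiquitin ligase that can target p53, averaged 13.48 ± 0.13, and Usp7, the deubiquitinase that stabilises both p53 and MDM2, 12.53 ± 0.07. The ribosomal protein genes Rpl11 and Rpl5, whose products bind MDM2, averaged 12.26 ± 0.07 and 12.23 ± 0.13. Ppp1r13b, which encodes the p53 cofactor ASPP1, had 11.83, 11.58, 12.07, 11.61 and 11.35 in tumours 1, 5, 8, 14 and 15. It was highest in tumour 8 and lowest in tumour 15, the same extremes as Cdkn1a. Ppp1r13l, the gene of the inhibitory relative iASPP, averaged 8.16 ± 0.20.

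Genes that p53 is known to repress through p21 and the DREAM complex are those of the dividing cell. All 15 listed were in the table, and 0 of 15 ranged over 2-fold, against 3.79% of genes. Their median log2 expression was 10.89, 10.91, 11.11, 11.21 and 11.01 in tumours 1, 5, 8, 14 and 15. Tumour 14 was highest for 9 of the 15, against 15.8% of genes, and tumour 8 for 5, against 18.5%. Tumour 5 was lowest for 12, against 24.6% of genes. Tumour 5 also held the top value for 7 of 7 oligodendrocyte, 5 of 5 choroid plexus, 7 of 8 microglia and macrophage and 4 of 6 mature granule neuron markers. The share of all genes was 24.1%. Tumour 5 was highest for 2 of 6 astrocyte and Bergmann glia, 0 of 6 oligodendrocyte precursor and 0 of 6 pericyte and fibroblast markers. The part of these cell types in the values was not tested. Tumour 8 had the highest Cdkn1a and high values of the p21 and DREAM genes, and tumour 15 the lowest Cdkn1a and middle values. The other tumours ran the other way. Tumour 14 had the highest median of these genes and a Cdkn1a of 11.25, below tumours 1, 5 and 8. Tumours 1 and 5 had the lowest medians and a Cdkn1a of 11.39 and 11.35, above tumours 14 and 15. Tumour 8 was also lowest for 5 of 6 differentiating granule neuron markers, against 22.6% of genes. A link between any of these values was not tested. The proliferation marker Mki67 averaged 14.00 ± 0.16, Top2a 13.32 ± 0.14, Foxm1 12.30 ± 0.17 and E2f1 11.79 ± 0.07. The mitotic genes Ccnb2 and Cdc25c averaged 9.69 ± 0.23 and 9.40 ± 0.21, and Aurkb 10.59 ± 0.20.

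For Cdkn1a and Ppm1d, which were among the 3 most variable members, the genes of most similar pattern were sought in the same 13691 genes. The measure was the root mean square difference between values centred on each gene's mean over 5 tumours. For Cdkn1a these were Arrdc3 (difference 0.021), Pcdh8 (0.048) and Crlf2 (0.053). Arrdc3 had 12.17, 12.19, 12.51, 12.09 and 11.81 in tumours 1, 5, 8, 14 and 15. For Ppm1d they were 4930579G24Rik (0.018), Bard1 (0.029) and Slc41a1 (0.030). With 5 points these likenesses are descriptions with no test. The median of the pericyte and fibroblast markers had the extremes of Phlda3, highest in tumour 15 and lowest in tumour 14. Not every marker did: Col1a1 was highest in tumour 8 and lowest in tumour 5. Of the pericyte and fibroblast markers, 4 of 6 peaked in tumour 15, against 21.4% of genes. Their minimum lay in tumour 14 for 4 of 6, against 13% of genes, and none was listed at 0. Their part in the Phlda3 values was not tested.

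**Figure D5:**
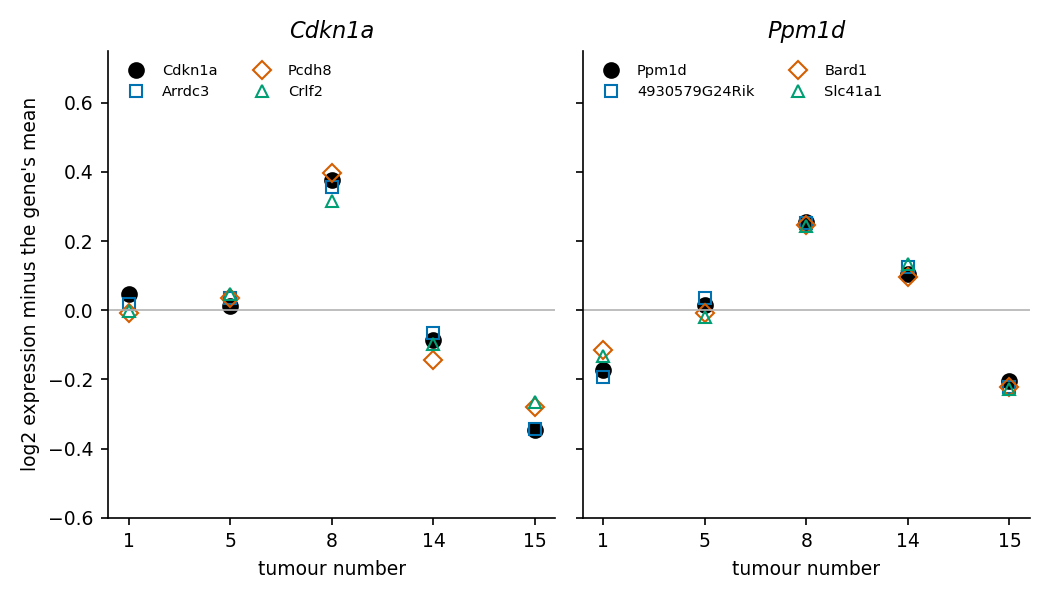
Log2 expression minus the gene's mean in each tumour for Cdkn1a and Ppm1d (black) and the 3 genes of smallest root mean square difference from each (open symbols). Cdkn1a and Ppm1d share a peak in tumour 8 and a minimum in tumour 15.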

How the data were processed

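RNA from 5 tumours had been sequenced as strand-specific mRNA libraries, per the labels' protocols. The authors deposited log2 values, per the table's short name in the labels, read here as DESeq2 regularised-log values; this transformation pulls weakly expressed genes towards their mean, so their differences are understated. The submitters' processing notes name STAR 2.4.1, featureCounts from Subread 1.4.6, DESeq2, mm10 and GRCm38; for annotation, strand setting and gene filter the sources used here give nothing. Of the table's 7 columns, 2 match no sample and were left out, although the transformation may have included them. Only log2 values were used, so depth is unknown. At genes whose mean reached 5, libraries shared 0 identical values.

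Exon lengths and positions came from GENCODE M21 on GRCm38, matching 97.5% of symbols and all 10 members. Lists, pairs and members were chosen with earlier results of these data known. Named genes were the members, genes of the 6 pairs, Trp63, Sesn3, the cell cycle inhibitors, from each of 3 pathway lists the 4 highest, 2 lowest and 3 most variable, and the 3 likest genes of the 3 most variable members, of which those for Phlda3 are not reported here. Pairs were tested with an exact sign-flip permutation test and Benjamini-Hochberg adjustment. Column medians lay between 8.51 and 8.58. Pseudogene matches used BLAST 2.17.0, at least 95% identity over at least 100 bases. Steps were tested on simulated data, with Python 3.11.15, numpy 2.4.6, pandas 2.3.3 and matplotlib 3.10.9.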

Additional observations from a re-analysis of the deposited data

Results flagged for a closer look

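In each set of 5 values the gap between the most extreme tumour and its nearest neighbour was compared with the whole range, for 91 genes, 6 pairs and 23 list medians. Of these 120 sets, 2 passed the 95% critical value of Dixon's test for 5 samples (0.71), where chance flags about 1 in 20. None of the 10 members of the p53 group was among them. The p53 target Rps27l, which encodes a ribosomal protein relative, stood at 8.67 in tumour 5, below 8.87 to 8.94 in the others. The choroid plexus marker median stood at 8.64 in tumour 5, above 7.93 to 8.04 in the others.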

How the results depend on the processing

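No comparison of paired samples was possible because the samples form 1 group, and the pairs tested were pairs of genes within each tumour. Of the pairs, Mdm2 minus Mdm4 reversed to -0.83 with no length subtracted, since the annotated exons of Mdm4 are the longer; no other pair changed sign. Without 1 tumour at a time the p53 members over 2-fold stayed at 0 and all genes over 2-fold ran from 248 (without tumour 5) to 501, with 317 without tumour 15. At 1.5-fold the counts were 2 members and 2014 genes, and by an SD above 0.3 they were 1 and 1164. List medians moved by more than their spread between tumours with other summaries. With means over genes they were 11.04 for negative regulators (10.80 as reported), 9.58 for member targets (10.03), 10.35 for other regulators (10.68) and 11.20 for the p21 and DREAM genes (11.02). With exon length subtracted they were 8.41, 7.79, 7.84 and 9.09, and 7.13 for other targets (9.23). Other regulators stood at 10.74 with only genes of mean at least 5. The full pair of decamers was a search added after the data were in hand. Unknown depth and values pulled to the mean limit what Phlda3, Cdkn2a, Fas and Gdf15 can show, and 5 tumours limit every p.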

Other observations

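Other arms of the p53 response, chosen after their values were seen, were laid side by side. Among targets with roles in DNA repair, Ercc5 averaged 9.83 ± 0.04, Xpc 9.23 ± 0.06 and Rrm2b, a ribonucleotide reductase subunit, 8.91 ± 0.09 (SD, n = 5). The damage sensor gene Ddb2 had an SD of 0.10, the polymerase gene Polk 0.14 and Gadd45a 0.30. Among cell death genes, Bax, which opens the mitochondrial membrane, averaged 10.20 ± 0.06, and Apaf1, which builds the apoptosome, 9.98 ± 0.07. The death triggers Bbc3 and Pmaip1, which encode PUMA and NOXA, had wider SDs of 0.28 and 0.22. Bbc3 had log2 expression of 9.10, 9.44, 9.32, 9.07 and 8.71 in tumours 1, 5, 8, 14 and 15, and Pmaip1 7.50, 7.55, 7.34, 7.19 and 7.01. Both were highest in tumour 5 and lowest in tumour 15. Of the microglia and macrophage markers, 7 of 8 were highest in tumour 5, against 24.1% of genes. Of the same markers, 7 of 8 were lowest in tumour 15, against 22.9% of genes. These counts were 4 of 6 and 3 of 6 for mature granule neuron markers, and 7 of 7 and 1 of 7 for oligodendrocyte markers. The part of these markers in the Bbc3 and Pmaip1 values was not tested. Other death genes had other extremes: Perp was highest in tumour 15, at 10.42, and Tnfrsf10b in tumour 1, at 7.10. Over the 34 other p53 targets, tumour 14 was lowest for 10, against 13% of all genes, and tumour 15 for 9, against 22.9%. Tumour 5 was highest for 12, against 24.1%. Whether these differences exceed technical spread was not tested, since each tumour has 1 library.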
